A study of Mus musculus with 16 samples.

Results

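The genes described here are the chemokines and chemokine receptors of mouse thymic lymphomas: the secreted ligands of the Ccl and Cxcl families and the receptors of the Ccr and Cxcr families. They were chosen by symbol alone, as every gene whose symbol is Ccl, Ccr, Cxcl or Cxcr followed by a number, with Ccr7 left out, and no measured value entered the choice. Of 22180 genes with an array feature (a set of probes summarised to 1 value) of their own, 47 were members, 15 receptors and 32 ligands, each read from its brightest feature. RNA was hybridized to 16 arrays in 5 groups. These were Lck-Dlx5 lymphomas (n = 3, mice aged 9 months, founder lines 63, 47 and 86), Lck-MyrAkt2 thymic tumors of founder line 72 (n = 3, 5 months) and of founder line 420 (n = 3, 5 months), thymic tumors of Lck-Dlx5;Lck-MyrAkt2 double transgenic mice (n = 4, 2 months, replicates 1 and 2 of Dlx5 founder line 47 crossed to Akt2 line 420, replicates 3 and 4 of Dlx5 founder line 86, whose Akt2 line the labels do not name), and thymic T cells of wild-type (WT) littermates of Lck-Dlx5 mice (n = 3, 9 months). The Lck promoter, active in immature thymocytes, drives both transgenes. Dlx5 encodes a homeobox factor, and MyrAkt2 is a constitutively active, membrane-bound form of the kinase Akt2. RNA came from primary tumors and, for WT, from thymic T cells. Kind of sample and genotype therefore cannot be told apart in any comparison with WT. Fewer cells of a type and less RNA per cell cannot be told apart either. Age, which differs between genotypes, cannot be told apart from genotype except between Lck-Dlx5 and WT mice and between both Lck-MyrAkt2 lines.

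Chemokines bind G protein-coupled receptors and guide cells along their gradients. In the thymus, Cxcl12 and Ccl25 from epithelial cells act on Cxcr4 and Ccr9 of immature thymocytes, while Ccr4 and its ligands Ccl17 and Ccl22 draw thymocytes towards the medulla after positive selection. Inflammatory ligands such as Ccl2, Ccl3, Ccl6 and Ccl9 are made mainly by macrophages and other myeloid cells and recruit monocytes, and Cxcl13 organises B cell follicles through Cxcr5.

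Ccl6, Ccl9 and Cxcl13 were the 3 members higher than in WT in all 4 tumor groups. The 250 bases before their annotated starts are shown for that reason, from the RefSeq promoter table on GRCm38.p6, which held a window for 34 of the 47 members. Capitals mark matches on either strand to the TATA box TATAAA or to a form of the NF-kB site (GGG, any 3 bases, TTCC).
Ccl6 (chr11:83593088-83593337, minus strand): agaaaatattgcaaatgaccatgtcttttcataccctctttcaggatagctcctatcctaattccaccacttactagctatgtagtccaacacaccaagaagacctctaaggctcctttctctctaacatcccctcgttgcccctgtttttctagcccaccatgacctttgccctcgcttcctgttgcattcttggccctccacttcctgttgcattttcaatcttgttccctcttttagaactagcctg
Ccl9 (chr11:83578637-83578886, minus strand): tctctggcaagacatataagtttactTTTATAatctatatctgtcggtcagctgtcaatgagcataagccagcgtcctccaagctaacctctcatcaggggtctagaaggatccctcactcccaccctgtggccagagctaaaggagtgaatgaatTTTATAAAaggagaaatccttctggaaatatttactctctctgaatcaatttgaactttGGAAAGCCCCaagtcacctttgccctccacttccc
Cxcl13 (chr5:95956689-95956938, plus strand): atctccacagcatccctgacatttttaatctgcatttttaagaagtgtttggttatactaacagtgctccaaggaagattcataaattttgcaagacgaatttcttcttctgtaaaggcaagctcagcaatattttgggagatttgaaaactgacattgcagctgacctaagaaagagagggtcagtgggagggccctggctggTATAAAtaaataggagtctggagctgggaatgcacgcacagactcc

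The Ccl9 window held 3 TATAAA matches, 2 of them overlapping at 94 to 87 bases before the start, and 1 NF-kB site match at 35 to 26 bases before it. The Cxcl13 window held TATAAA at 46 to 41 bases before the start, and the Ccl6 window held neither motif. Over all 32851 windows of this length in the table, 12.4% held TATAAA and 4.65% held the NF-kB site form. Among the 34 members with a window, 10 held TATAAA and 9 held the NF-kB site form. TAATTA, the core bound by many homeodomain proteins, was in 1 of these 34, Cxcl15, and in 4.84% of all windows. These matches describe letters only.

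Values are log2 expression levels as deposited, on which the arrays had medians of 6.32 to 6.47. Genes exceeding the array median on 3 or more arrays were tested, which left 12932 genes and 31 members, 11 receptors and 20 ligands. Dlx5 itself was at 11.45, 12.08 and 12.30 in Lck-Dlx5 lymphomas, 6.05, 6.05 and 6.07 in line 72 tumors, 9.87, 10.69 and 10.28 in line 420 tumors, 12.68, 11.93, 12.97 and 12.83 in double transgenic tumors, and 5.82, 5.76 and 5.70 in WT thymic T cells. It was thus high on every array of a Dlx5 transgenic group and also in line 420, and near the array median or below it in line 72 and WT. T cell markers (8 genes) were well above the array median in every group, with a summed level of 14.04 to 14.30 in Lck-Dlx5 lymphomas, 14.02 to 14.21 in line 72 tumors, 13.81 to 14.31 in line 420 tumors, 14.28 to 14.71 in double transgenic tumors, and 14.69 to 14.75 in WT thymic T cells. Line 72 replicate 2 stood apart in markers of other cells, with the macrophage receptor Marco at 10.01 against 6.18 to 7.40 on the other 15 arrays. Xist was high on Lck-Dlx5 replicate 1, all line 72 arrays, line 420 replicate 3 and double transgenic replicates 3 and 4. It was low on all WT arrays, so sex and genotype cannot be told apart between line 72 and WT. Low Xist alone does not settle sex. Lck-Dlx5 replicate 3 was low in Xist (5.73) and in the Y-linked Eif2s3y (4.73) and Kdm5d (3.67). Kdm5d was high but Eif2s3y low on line 420 replicate 2 (8.90 and 5.33) and double transgenic replicate 2 (8.67 and 5.25).

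Against WT thymic T cells, 19 of the 31 members tested were called in at least 1 tumor group, by limma's adjusted p under 0.05, and none was higher in one tumor group and lower in another. Ccl6, Ccl9 and Cxcl13 were higher in all 4 groups, and Ccl25 and Ccl27a were lower in all 4. All 4 comparisons share the WT arrays. In Lck-Dlx5 lymphomas 12 members were called (38.7% of those tested), 4 higher and 8 lower, where 29.6% of all genes tested were called, 13.7% higher and 15.9% lower. In line 72 tumors 13 were called (41.9%), 8 higher and 5 lower, where 36.3% of all genes were called, 20.7% higher and 15.6% lower. In line 420 tumors 11 were called (35.5%), 6 higher and 5 lower, against 30.5% of all genes, 15.1% higher and 15.4% lower. In double transgenic tumors 10 were called (32.3%), 5 higher and 5 lower, against 23.8% of all genes, 14.9% higher and 8.93% lower. Values of the tumor group and WT did not overlap for 21 members in Lck-Dlx5 (67.7%, beside 52.8% of all genes), 20 in line 72 (64.5%, beside 58.2%), 16 in line 420 (51.6%, beside 53.8%) and 13 in double transgenic tumors (41.9%, beside 40.0%). The shares called lie near those of all genes, and the counts alone are no result about the family. The median size of the log2 difference over the members tested was 0.61, 0.70, 0.58 and 0.56 in the same order of tumor groups, beside 0.29, 0.32, 0.29 and 0.24 over all genes tested. The medians of the signed differences were -0.13, 0.06, 0.05 and 0.06, so members moved in both directions within each tumor group.

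**Figure D1:**
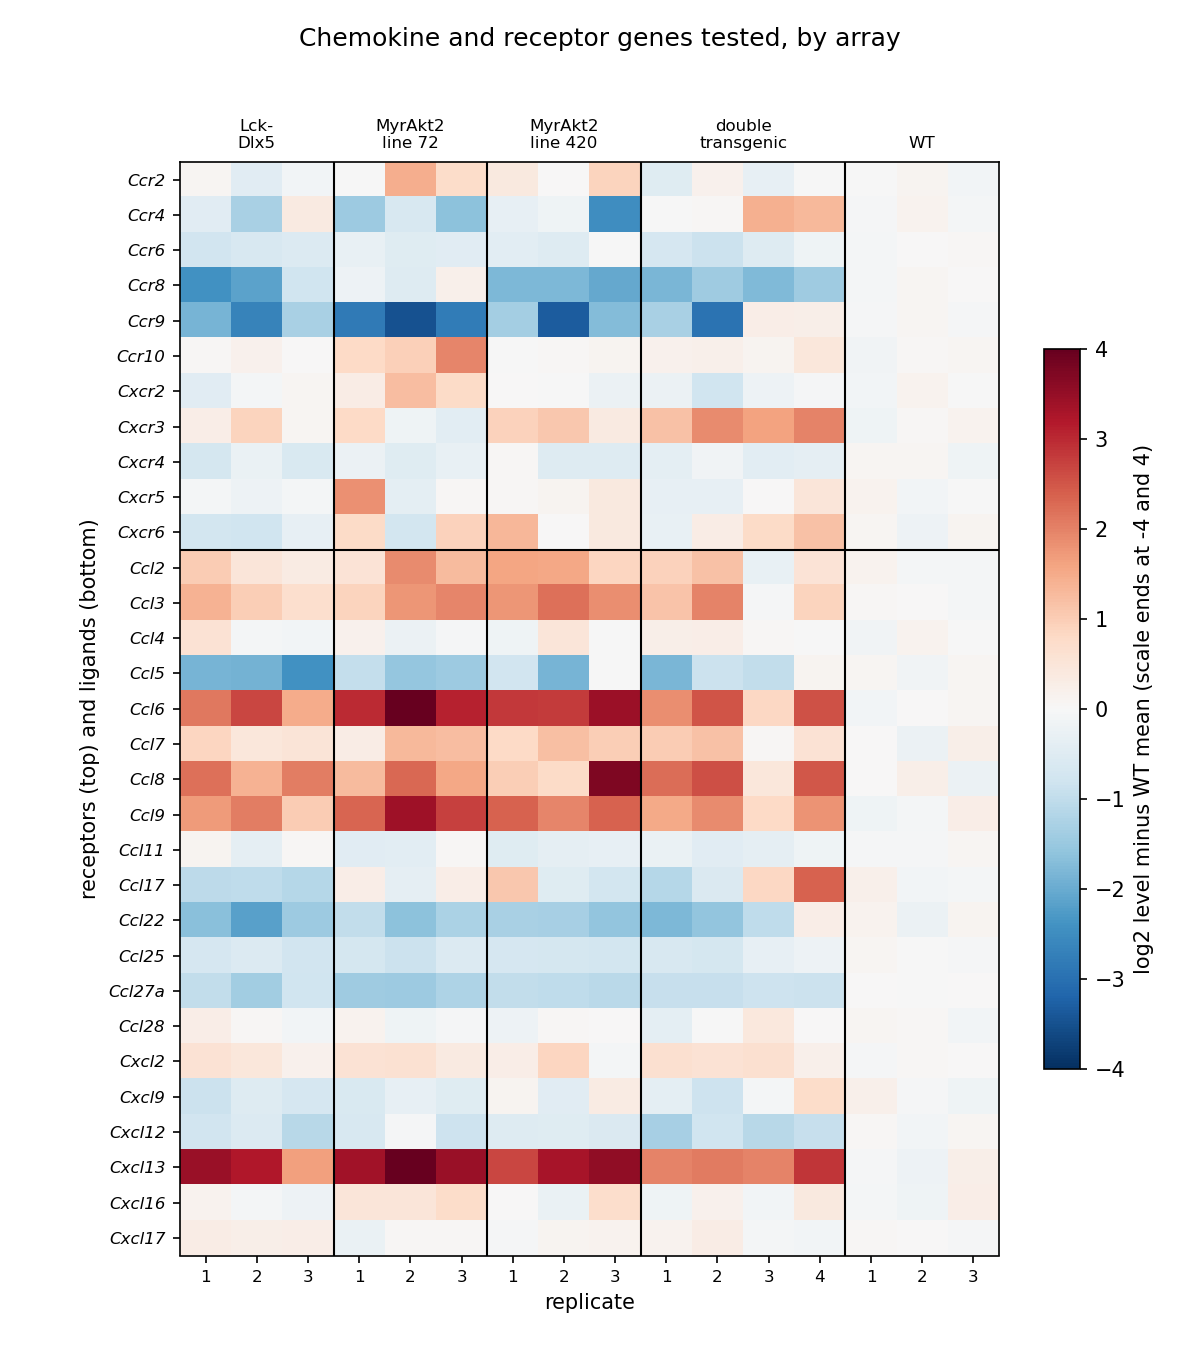
Each row is 1 of the 31 members tested and each column 1 array, with colour giving the log2 level minus the mean of the 3 WT arrays (red higher, blue lower). Ccl6, Ccl9 and Cxcl13 are red on all 13 tumor arrays, and Ccl25 and Ccl27a are blue on all 13.

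Among receptors of thymocyte homing, Ccr9 fell in 2 of the tumor groups, Ccr8 in 3 and Cxcr4 in 1, and none was higher than WT. Ccr9, the receptor for Ccl25, was at 8.27, 7.46 and 8.84 in Lck-Dlx5 lymphomas, 7.30, 6.64 and 7.31 in line 72 tumors, 8.75, 6.80 and 8.38 in line 420 tumors, 8.81, 7.18, 10.37 and 10.34 in double transgenic tumors, and 10.08, 10.19 and 10.09 in WT thymic T cells. Only double transgenic replicates 3 and 4, both of Dlx5 founder line 86, reached the WT level. Ccr9 was lower than WT in line 72 tumors (log2 difference -3.03 ± 0.70 SE, adjusted p = 0.00411, 8.19-fold) and in line 420 tumors (-2.14 ± 0.70 SE, adjusted p = 0.0326). The line 420 call was lost on omission of line 420 replicate 2 (-1.55, adjusted p = 0.133), WT replicate 1 (-2.16, 0.0764), WT replicate 2 (-2.11, 0.0838) and WT replicate 3 (-2.16, 0.074) and under 1 processing setting (adjusted p = 0.0719), with 0.0114 to 0.133 as its span in all settings. In Lck-Dlx5 lymphomas the Ccr9 difference of -1.93 did not pass (adjusted p = 0.0518), with groups that did not overlap, and it was called under 4 processing settings (adjusted p = 0.00376 to 0.0492). In double transgenic tumors it was -0.94 ± 0.66 SE, adjusted p = 0.326.

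Ccr8, a receptor of maturing thymocytes and of some T helper and regulatory T cells, was at 5.42, 5.68 and 7.05 in Lck-Dlx5 lymphomas, 7.63, 7.30 and 8.03 in line 72 tumors, 6.05, 6.04 and 5.78 in line 420 tumors, 6.01, 6.40, 6.08 and 6.40 in double transgenic tumors, and 7.75, 7.90 and 7.84 in WT thymic T cells. Line 72 tumors overlapped WT, and every array of the other tumor groups lay below both. Against WT the log2 difference of Ccr8 was -1.78 ± 0.31 SE (adjusted p = 0.00144) in Lck-Dlx5 lymphomas, -1.88 ± 0.31 SE (adjusted p = 0.000842) in line 420 tumors and -1.61 ± 0.29 SE (adjusted p = 0.00207) in double transgenic tumors, against -0.18 ± 0.31 SE (adjusted p = 0.699) in line 72 tumors. These 3 calls held under every alternative that tested them.

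Ccr4, the receptor for Ccl17 and Ccl22, was at 8.26, 7.39 and 9.07 in Lck-Dlx5 lymphomas, 7.26, 8.05 and 7.06 in line 72 tumors, 8.37, 8.53 and 6.22 in line 420 tumors, 8.69, 8.75, 10.11 and 10.01 in double transgenic tumors, and 8.67, 8.82 and 8.61 in WT thymic T cells. It was called in no comparison with WT, with adjusted p of 0.59 in Lck-Dlx5, 0.113 in line 72, 0.219 in line 420 and 0.395 in double transgenic tumors, and its highest values were again double transgenic replicates 3 and 4. With the type of sample code as a term, Ccr4 was called lower in line 72 tumors (-1.24, adjusted p = 0.0131) and higher in double transgenic tumors (1.54, adjusted p = 0.0142, against a difference of 0.69 in the fit without it). The code was a letter for double transgenic replicates 1 and 2 and line 420 replicate 3, and a number for all other samples. Within the double transgenic group it therefore cannot be told apart from the Dlx5 founder line. The line 72 difference was also called with only the arrays compared (adjusted p = 0.00492). Cxcr4, the receptor for Cxcl12, was at 11.12, 11.57 and 11.23 in Lck-Dlx5 lymphomas, 11.59, 11.34 and 11.55 in line 72 tumors, 11.90, 11.33 and 11.31 in line 420 tumors, 11.44, 11.71, 11.42 and 11.47 in double transgenic tumors, and 11.91, 11.92 and 11.68 in WT thymic T cells. Its largest difference from WT was the one in Lck-Dlx5 lymphomas (-0.53 ± 0.16 SE, adjusted p = 0.026), 1.45-fold. That call was lost on omission of Lck-Dlx5 replicate 1 (-0.44, adjusted p = 0.0906), Lck-Dlx5 replicate 3 (-0.49, 0.0771), WT replicate 1 (-0.49, 0.0848) and WT replicate 2 (-0.49, 0.0871), with 0.0133 to 0.0906 as its span in all settings. Of 8 markers of double-positive thymocytes, the main stage of the thymus, 5 were lower than WT in Lck-Dlx5 lymphomas, 8 in line 72, 8 in line 420 and 2 in double transgenic tumors. Of all genes tested, 15.9%, 15.6%, 15.4% and 8.93% were lower in the same order. The summed log2 level of these markers was 14.02 to 14.40 in Lck-Dlx5 lymphomas, 11.70 to 12.13 in line 72 tumors, 12.55 to 13.88 in line 420 tumors, 13.76 to 14.67 in double transgenic tumors, and 15.18 to 15.29 in WT thymic T cells. The part of double-positive cells in the receptor differences was not tested.

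**Figure D2:**
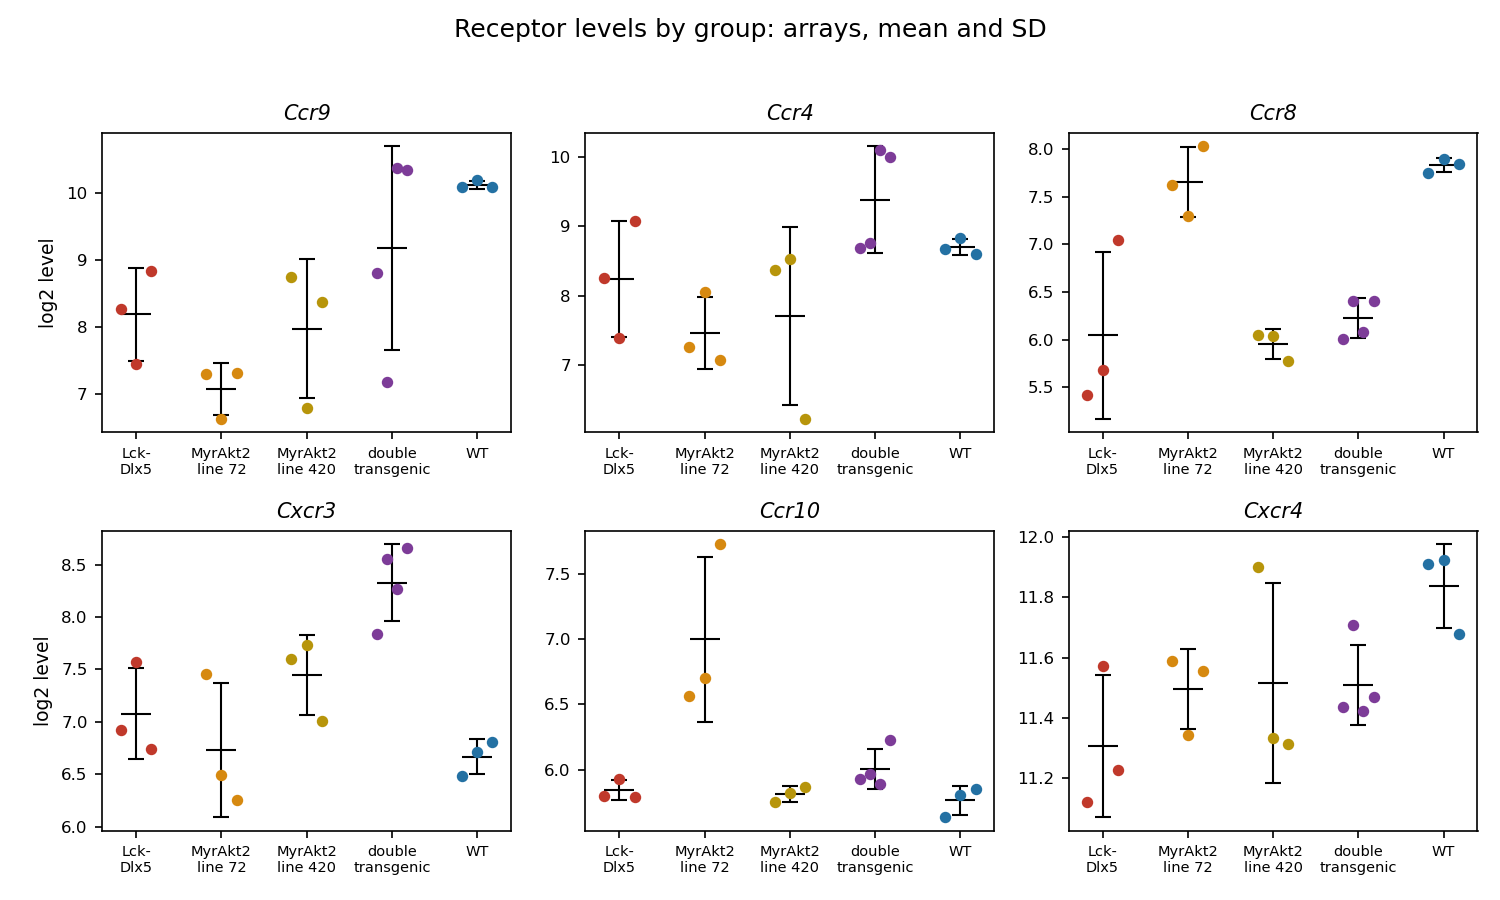
Points are single arrays on the log2 scale, with the mean and SD of each group, for 6 receptors. Ccr9 and Ccr4 of the double transgenic group split into a lower and an upper pair of arrays, Ccr8 is highest in line 72 tumors and WT, and Cxcr3 is highest in double transgenic tumors.

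Among receptors of mature and effector T cells, Cxcr3 rose in double transgenic tumors. Cxcr3, which binds the interferon-induced ligands Cxcl9, Cxcl10 and Cxcl11, was at 6.92, 7.57 and 6.74 in Lck-Dlx5 lymphomas, 7.46, 6.49 and 6.25 in line 72 tumors, 7.60, 7.73 and 7.01 in line 420 tumors, 7.84, 8.55, 8.27 and 8.66 in double transgenic tumors, and 6.48, 6.71 and 6.81 in WT thymic T cells. All 4 double transgenic arrays lay above every array of the other groups. The log2 difference from WT was 1.66 ± 0.29 SE, adjusted p = 0.0016, or 3.17-fold, and in the other tumor groups it was 0.41 (adjusted p = 0.341) in Lck-Dlx5, 0.07 (0.893) in line 72 and 0.78 (0.0722) in line 420. In line 420 it was called on omission of line 420 replicate 3 (1.00, adjusted p = 0.0456) and under 2 processing settings (adjusted p = 0.0215 to 0.045). Cxcr3 lies on the X chromosome, and the part of sex in its levels was not tested. Of its ligands, Cxcl9 was called in no comparison with WT (log2 differences of -0.68, -0.47, -0.01 and -0.14 in Lck-Dlx5, line 72, line 420 and double transgenic tumors), and Cxcl10 and Cxcl11 were too dim to be tested. Under 1 processing setting Cxcl9 was called lower in Lck-Dlx5 (adjusted p = 0.00847) and line 72 (0.0181). It was also called lower in the founder line 47 double transgenic tumors alone (-0.62, adjusted p = 0.0498).

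Ccr10, the receptor for Ccl27 and Ccl28 on skin- and mucosa-homing lymphocytes, was at 5.80, 5.93 and 5.79 in Lck-Dlx5 lymphomas, 6.56, 6.71 and 7.73 in line 72 tumors, 5.75, 5.82 and 5.86 in line 420 tumors, 5.93, 5.97, 5.89 and 6.23 in double transgenic tumors, and 5.64, 5.81 and 5.85 in WT thymic T cells. It passed the filter on dim genes through the 3 line 72 arrays alone, so its height in line 72 is fixed by the filter, and its difference of 1.24 from WT is a description only, although the counts of called members include it. Ccr6, the receptor for Ccl20, was at 5.78, 5.90 and 5.99 in Lck-Dlx5 lymphomas, 6.24, 6.06 and 6.10 in line 72 tumors, 6.11, 6.05 and 6.52 in line 420 tumors, 5.87, 5.68, 6.04 and 6.37 in double transgenic tumors, and 6.48, 6.56 and 6.60 in WT thymic T cells. It exceeded the array median on 4 arrays, the 3 WT arrays and line 420 replicate 3. Without its WT values Ccr6 would not have been tested, so its place below WT is set by the filter. Its differences from WT of -0.66 in Lck-Dlx5 lymphomas and -0.56 in double transgenic tumors are a description only, although the counts of called members include them. The double transgenic difference was -0.55 without WT replicate 2, -0.53 without WT replicate 3 and -0.34 without the founder line 47 tumors. Summed B cell markers (7 genes), a cell type that also carries Ccr6 and Cxcr5, were 8.91 to 9.04 in Lck-Dlx5 lymphomas, 8.86 to 9.09 in line 72 tumors, 9.50 to 10.17 in line 420 tumors, 8.99 to 10.16 in double transgenic tumors, and 9.97 to 10.38 in WT thymic T cells. Their part was not tested.

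Ccr2, Cxcr5 and Cxcr6 were called in no comparison between groups. Cxcr5, the receptor for Cxcl13, was at 8.86 in line 72 replicate 1 and at 6.63 to 7.52 on the other 15 arrays. Cxcr6, the receptor for Cxcl16, ranged over 5.94 to 6.38 in Lck-Dlx5 lymphomas, 5.99 to 7.63 in line 72, 6.74 to 8.05 in line 420 and 6.42 to 7.90 in double transgenic tumors, against 6.52 to 6.82 in WT. Its groups overlapped except for Lck-Dlx5, below WT (adjusted p = 0.311), where it was called under 1 processing setting (adjusted p = 0.0186). Ccr2, the receptor for Ccl2 and Ccl7 on monocytes, reached 8.07 in line 72 replicate 2 and lay at 6.14 to 7.52 elsewhere. Against WT it was called higher in line 72 on omission of line 72 replicate 1 (1.09, adjusted p = 0.0091). Cxcr2, the neutrophil receptor for Cxcl1, Cxcl2 and Cxcl5, was at 6.16, 6.51 and 6.68 in Lck-Dlx5 lymphomas, 6.91, 7.83 and 7.37 in line 72 tumors, 6.63, 6.58 and 6.38 in line 420 tumors, 6.38, 5.81, 6.41 and 6.55 in double transgenic tumors, and 6.49, 6.74 and 6.58 in WT thymic T cells. It was higher than WT in line 72 tumors only (0.77 ± 0.22 SE, adjusted p = 0.016), and this was lost on omission of line 72 replicate 2 (0.53, adjusted p = 0.0819) and WT replicate 1 (0.71, 0.0572), with 0.00399 to 0.0819 as its span in all settings. Summed neutrophil markers (11 genes) were 9.31 to 9.40 in Lck-Dlx5 lymphomas, 10.32 to 12.03 in line 72 tumors, 9.47 to 9.50 in line 420 tumors, 9.15 to 9.54 in double transgenic tumors, and 10.97 to 11.40 in WT thymic T cells. Line 72 replicate 2 had both the highest sum and the highest Cxcr2. Line 72 replicates 1 and 3 had sums of 10.32 and 10.62, below every WT array, but Cxcr2 above every WT array. The part of neutrophil content was not tested. The other receptors of myeloid cells, Ccr1, Ccr3 and Cxcr1, and the Ccr1 relative Ccr1l1, were too dim to be tested.

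Ligands of the thymic stroma were lower in the tumors than in WT wherever they were called. Ccl25, the epithelial ligand of Ccr9, was at 7.37, 7.49 and 7.26 in Lck-Dlx5 lymphomas, 7.34, 7.18 and 7.48 in line 72 tumors, 7.37, 7.34 and 7.30 in line 420 tumors, 7.41, 7.33, 7.72 and 7.83 in double transgenic tumors, and 8.11, 8.01 and 7.99 in WT thymic T cells. Every tumor array lay below every WT array. The log2 difference from WT was -0.66 ± 0.13 SE (adjusted p = 0.0027) in Lck-Dlx5, -0.70 ± 0.13 SE (adjusted p = 0.00103) in line 72, -0.70 ± 0.13 SE (adjusted p = 0.00157) in line 420 and -0.46 ± 0.12 SE (adjusted p = 0.015) in double transgenic tumors. In double transgenic tumors the call was lost on omission of WT replicate 1 (-0.43, adjusted p = 0.0677) and the founder line 47 tumors (-0.26, 0.155) and under 2 processing settings (adjusted p = 0.0517 to 0.0703), with 0.00123 to 0.155 as its span in all settings. Cxcl12, the ligand of Cxcr4, was at 6.53, 6.72 and 6.16 in Lck-Dlx5 lymphomas, 6.64, 7.24 and 6.44 in line 72 tumors, 6.77, 6.81 and 6.72 in line 420 tumors, 5.96, 6.48, 6.17 and 6.35 in double transgenic tumors, and 7.32, 7.17 and 7.36 in WT thymic T cells. It was lower in Lck-Dlx5 lymphomas (-0.81 ± 0.19 SE, adjusted p = 0.00728) and double transgenic tumors (-1.04 ± 0.18 SE, adjusted p = 0.00151), and its differences of -0.51 in line 72 and -0.52 in line 420 tumors missed the threshold (adjusted p = 0.0528 and 0.0559). The line 72 difference of Cxcl12 was called on omission of line 72 replicate 2 (-0.74, adjusted p = 0.00622), and the line 420 one under 1 processing setting (adjusted p = 0.00476).

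Of 8 thymic epithelial markers, 7 were lower than WT in Lck-Dlx5, 4 in line 72, 7 in line 420 and 5 in double transgenic tumors. Of all genes tested, 15.9%, 15.6%, 15.4% and 8.93% were lower in the same order. The summed log2 level of these markers was 10.12 to 10.60 in Lck-Dlx5 lymphomas, 10.46 to 10.89 in line 72 tumors, 10.40 to 10.55 in line 420 tumors, 10.50 to 10.93 in double transgenic tumors, and 11.29 to 11.50 in WT thymic T cells. Markers of fibroblasts and endothelium (12 genes), which also make Cxcl12, summed to 10.99 to 11.93 in Lck-Dlx5 lymphomas, 11.35 to 12.28 in line 72 tumors, 11.28 to 11.38 in line 420 tumors, 10.67 to 11.55 in double transgenic tumors, and 11.21 to 11.34 in WT thymic T cells. The part of either in the ligand differences was not tested.

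Ccl22 and Ccl17, neighbours on chromosome 8 and both ligands of Ccr4, are made by medullary dendritic cells. Ccl22 was at 5.86, 5.36 and 6.07 in Lck-Dlx5 lymphomas, 6.52, 5.87 and 6.27 in line 72 tumors, 6.22, 6.18 and 5.95 in line 420 tumors, 5.73, 5.94, 6.51 and 7.80 in double transgenic tumors, and 7.67, 7.28 and 7.62 in WT thymic T cells. It was lower than WT in Lck-Dlx5 (-1.76 ± 0.40 SE, adjusted p = 0.00557), line 72 (-1.30 ± 0.40 SE, adjusted p = 0.0196) and line 420 tumors (-1.40 ± 0.40 SE, adjusted p = 0.0162). For line 72 the call was lost on omission of line 72 replicate 2 (-1.12, adjusted p = 0.0769), WT replicate 1 (-1.23, 0.0625) and WT replicate 3 (-1.25, 0.0574), with 0.00124 to 0.0769 as its span in all settings. For line 420 it was lost on omission of line 420 replicate 3 (-1.32, adjusted p = 0.051), WT replicate 1 (-1.33, 0.0554) and WT replicate 3 (-1.35, 0.0507), with 0.000662 to 0.0554 as its span in all settings. Double transgenic replicate 4 lay above all WT arrays and the other 3 below them, and the difference was -1.02 ± 0.37 SE, adjusted p = 0.0594. It was called on omission of double transgenic replicate 4 (-1.46, adjusted p = 0.00134). Ccl17 was at 5.45, 5.49 and 5.35 in Lck-Dlx5 lymphomas, 6.77, 6.15 and 6.75 in line 72 tumors, 7.57, 6.03 and 5.77 in line 420 tumors, 5.34, 5.90, 7.32 and 8.87 in double transgenic tumors, and 6.68, 6.40 and 6.40 in WT thymic T cells. The 3 Lck-Dlx5 lymphomas had the tightest and, with double transgenic replicate 1, the lowest Ccl17, but no comparison with WT passed (adjusted p from 0.255 to 0.973). The Lck-Dlx5 difference was called under 1 processing setting (adjusted p = 0.000771).

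Inflammatory CC ligands, the largest list of members by role, had the most calls in the higher direction. Of 11 listed, 9 were tested, and 3 were higher and 1 lower in Lck-Dlx5, 5 higher and 1 lower in line 72, 5 higher in line 420 and 3 higher in double transgenic tumors. Of all genes tested, 13.7%, 20.7%, 15.1% and 14.9% were higher in the same order, and 15.9%, 15.6%, 15.4% and 8.93% lower. Ccl6, a monocyte-attracting ligand known from rodents, was at 8.81, 9.37 and 8.18 in Lck-Dlx5 lymphomas, 9.69, 11.06 and 9.77 in line 72 tumors, 9.52, 9.50 and 10.10 in line 420 tumors, 8.54, 9.22, 7.52 and 9.24 in double transgenic tumors, and 6.58, 6.71 and 6.78 in WT thymic T cells. No tumor array overlapped WT. Its log2 difference was 2.10 ± 0.45 SE (adjusted p = 0.00406) in Lck-Dlx5, 3.48 ± 0.45 SE (adjusted p = 6.9e-05) in line 72 (11.2-fold), 3.02 ± 0.45 SE (adjusted p = 0.000393) in line 420 and 1.94 ± 0.42 SE (adjusted p = 0.00525) in double transgenic tumors. Ccl9, its neighbour and a ligand of Ccr1, was at 8.60, 8.94 and 7.92 in Lck-Dlx5 lymphomas, 9.22, 10.30 and 9.62 in line 72 tumors, 9.25, 8.86 and 9.25 in line 420 tumors, 8.43, 8.78, 7.70 and 8.71 in double transgenic tumors, and 6.71, 6.82 and 7.17 in WT thymic T cells. Again no tumor array overlapped WT. Its log2 difference was 1.59 ± 0.32 SE (adjusted p = 0.00296) in Lck-Dlx5, 2.81 ± 0.32 SE (adjusted p = 2.75e-05) in line 72, 2.22 ± 0.32 SE (adjusted p = 0.000339) in line 420 and 1.51 ± 0.30 SE (adjusted p = 0.00333) in double transgenic tumors. Without line 72 replicate 2, the line 72 difference of Ccl6 was 3.04 (8.21-fold, adjusted p = 0.000341) and that of Ccl9 2.52 (5.75-fold, adjusted p = 0.000156). For both genes double transgenic replicate 3 was the tumor array closest to WT, and all 8 calls held under every alternative that tested them.

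Ccl3, a ligand of Ccr1, was at 7.21, 6.81 and 6.48 in Lck-Dlx5 lymphomas, 6.70, 7.57 and 7.75 in line 72 tumors, 7.58, 8.01 and 7.66 in line 420 tumors, 6.95, 7.78, 5.75 and 6.70 in double transgenic tumors, and 5.86, 5.84 and 5.72 in WT thymic T cells. It rose in line 72 (1.53 ± 0.39 SE, adjusted p = 0.00738) and line 420 tumors (1.94 ± 0.39 SE, adjusted p = 0.00236). In Lck-Dlx5 and double transgenic tumors its differences of 1.03 and 0.99 missed the threshold (adjusted p = 0.0613 and 0.0636), and double transgenic replicate 3 was inside the WT range. In Lck-Dlx5 it was called under 2 processing settings (adjusted p = 0.00527 to 0.0426), and in double transgenic tumors on omission of double transgenic replicate 3 (1.34, adjusted p = 0.00611). Ccl2, the main ligand of Ccr2, was at 7.19, 6.66 and 6.50 in Lck-Dlx5 lymphomas, 6.71, 8.07 and 7.44 in line 72 tumors, 7.74, 7.72 and 7.05 in line 420 tumors, 7.10, 7.35, 5.88 and 6.73 in double transgenic tumors, and 6.32, 6.11 and 6.10 in WT thymic T cells. It rose in line 72 (1.23 ± 0.37 SE, adjusted p = 0.0177) and line 420 (1.33 ± 0.37 SE, adjusted p = 0.0147), with 0.60 in Lck-Dlx5 (adjusted p = 0.233) and 0.59 in double transgenic tumors (0.238). In Lck-Dlx5 Ccl2 was called under 1 processing setting (adjusted p = 0.0391), and in double transgenic tumors on omission of double transgenic replicate 3 (0.88, adjusted p = 0.0472). The line 72 call of Ccl2 was lost on omission of line 72 replicate 2 (0.90, adjusted p = 0.0896), WT replicate 2 (1.20, 0.0536) and WT replicate 3 (1.19, 0.0517), with 0.00591 to 0.0896 as its span in all settings. Its line 420 call was lost on omission of line 420 replicate 1 (1.21, adjusted p = 0.0526), with 0.00269 to 0.0526 as its span in all settings.

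Ccl7, which shares Ccr2 with Ccl2, was at 7.11, 6.71 and 6.77 in Lck-Dlx5 lymphomas, 6.57, 7.55 and 7.49 in line 72 tumors, 7.04, 7.45 and 7.25 in line 420 tumors, 7.26, 7.43, 6.31 and 6.84 in double transgenic tumors, and 6.27, 6.02 and 6.48 in WT thymic T cells. The direction was that of Ccl2, with a rise in line 72 (0.95 ± 0.29 SE, adjusted p = 0.0194) and line 420 (0.99 ± 0.29 SE, adjusted p = 0.0188). In line 72 it was lost on omission of line 72 replicate 2 (0.77, adjusted p = 0.0848), line 72 replicate 3 (0.80, 0.0758) and WT replicate 2 (0.83, 0.0788), with 0.00352 to 0.0848 as its span in all settings. In line 420 it was lost on omission of line 420 replicate 2 (0.89, adjusted p = 0.0625), WT replicate 1 (1.00, 0.0505) and WT replicate 2 (0.87, 0.0764), with 0.0033 to 0.0764 as its span in all settings. The differences of 0.60 in Lck-Dlx5 and 0.70 in double transgenic tumors missed the threshold, the first being called under 1 processing setting (adjusted p = 0.023) and the second on omission of double transgenic replicate 3 (0.92, adjusted p = 0.0147). Ccl8, a monocyte and T cell attractant, was at 8.33, 7.51 and 8.17 in Lck-Dlx5 lymphomas, 7.38, 8.43 and 7.65 in line 72 tumors, 7.10, 6.87 and 9.84 in line 420 tumors, 8.34, 8.70, 6.56 and 8.60 in double transgenic tumors, and 6.13, 6.35 and 5.88 in WT thymic T cells. All 13 tumor arrays lay above WT, with a wide spread between tumors. Ccl8 passed narrowly in Lck-Dlx5 (1.88 ± 0.68 SE, adjusted p = 0.0492) and double transgenic tumors (1.93 ± 0.63 SE, adjusted p = 0.0398), and missed in line 72 (1.70 ± 0.68 SE, adjusted p = 0.0628) and line 420 (1.82 ± 0.68 SE, adjusted p = 0.0549). In line 72 it was called under 2 processing settings (adjusted p = 0.0018 to 0.0151), and in line 420 on omission of line 420 replicate 1 (2.24, adjusted p = 0.0424) and line 420 replicate 2 (2.35, 0.0273) and under 1 processing setting (adjusted p = 0.0438). The Lck-Dlx5 call was lost on omission of Lck-Dlx5 replicate 1 (1.72, adjusted p = 0.122), Lck-Dlx5 replicate 2 (2.13, 0.061), Lck-Dlx5 replicate 3 (1.80, 0.114), WT replicate 1 (1.89, 0.109), WT replicate 2 (2.00, 0.0902) and WT replicate 3 (1.76, 0.125) and under 3 processing settings (adjusted p = 0.0507 to 0.0609), with 0.00125 to 0.125 as its span in all settings. The double transgenic call was lost on omission of double transgenic replicate 1 (1.83, adjusted p = 0.0804), double transgenic replicate 2 (1.72, 0.101), double transgenic replicate 4 (1.75, 0.0851), WT replicate 1 (1.94, 0.103), WT replicate 2 (2.04, 0.0869), WT replicate 3 (1.81, 0.117) and the founder line 47 tumors (1.46, 0.246) and under 2 processing settings (adjusted p = 0.0572 to 0.181), with 0.00867 to 0.246 as its span in all settings.

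**Figure D3:**
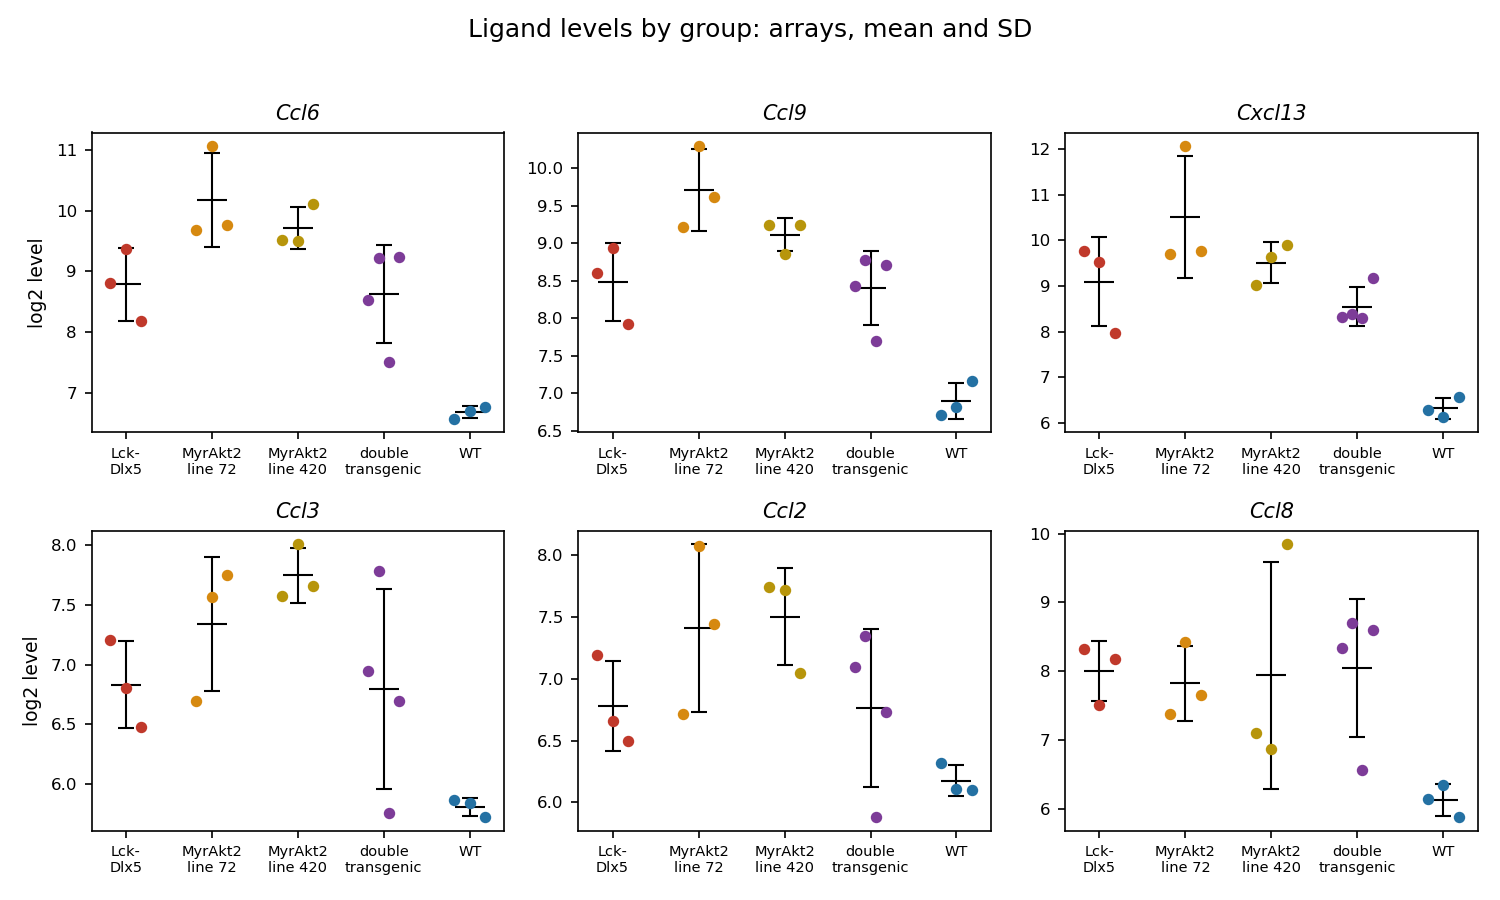
Points are single arrays on the log2 scale, with the mean and SD of each group, for 6 ligands. Ccl6, Ccl9, Cxcl13 and Ccl8 lie above all WT arrays in every tumor, and line 72 replicate 2 holds the highest Ccl6 (11.06), Ccl9 (10.30) and Cxcl13 (12.06).

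Ccl5, a ligand of Ccr1 and Ccr3 made by activated and cytotoxic lymphocytes, went the other way and was at 7.39, 7.37 and 6.84 in Lck-Dlx5 lymphomas, 8.28, 7.71 and 7.79 in line 72 tumors, 8.50, 7.40 and 9.24 in line 420 tumors, 7.43, 8.38, 8.26 and 9.35 in double transgenic tumors, and 9.32, 9.10 and 9.32 in WT thymic T cells. It fell in Lck-Dlx5 lymphomas (-2.05 ± 0.44 SE, adjusted p = 0.0042), 4.15-fold, and in line 72 tumors (-1.32 ± 0.44 SE, adjusted p = 0.0303). The line 72 call was lost on omission of line 72 replicate 2 (-1.21, adjusted p = 0.0907), line 72 replicate 3 (-1.25, 0.0792), WT replicate 1 (-1.28, 0.0788), WT replicate 2 (-1.40, 0.0587) and WT replicate 3 (-1.28, 0.0766), with 0.000663 to 0.0907 as its span in all settings. In line 420 and double transgenic tumors Ccl5 overlapped WT, but was called on omission of line 420 replicate 3 (-1.30, adjusted p = 0.0448) for line 420 and on omission of double transgenic replicate 4 (-1.23, adjusted p = 0.0328) for double transgenic tumors. Markers of NK and cytotoxic cells (6 genes, 2 of them tested) summed to 8.69 to 9.19 in Lck-Dlx5 lymphomas, 8.67 to 9.90 in line 72 tumors, 8.81 to 9.82 in line 420 tumors, 8.64 to 9.29 in double transgenic tumors, and 10.17 to 10.27 in WT thymic T cells, and their part was not tested. Ccl4 and Ccl11 were called in no comparison with WT, with log2 differences of -0.04 to 0.14 for Ccl4 and -0.39 to -0.07 for Ccl11. Ccl11 was called lower in line 420 under 1 processing setting (adjusted p = 0.0131) and in line 72 on omission of line 72 replicate 3 (-0.44, 0.0305).

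Of 16 macrophage and dendritic cell markers listed 15 had a feature and 14 were tested, of which 2 were higher than WT in Lck-Dlx5, 8 in line 72, 5 in line 420 and 1 in double transgenic tumors, and none lower. Of all genes tested, 13.7%, 20.7%, 15.1% and 14.9% were higher in the same order, so the marker share was near or below it in Lck-Dlx5 and double transgenic tumors and above it in both Lck-MyrAkt2 lines. The summed log2 level over 15 was 11.80 to 12.49 in Lck-Dlx5 lymphomas, 12.65 to 13.66 in line 72 tumors, 12.50 to 13.11 in line 420 tumors, 11.85 to 12.51 in double transgenic tumors, and 11.66 to 11.99 in WT thymic T cells. The group means of these sums were higher in line 72 and line 420 than in Lck-Dlx5 and double transgenic tumors, as were the mean Ccl6 and Ccl9 levels. The part of macrophage content in the ligand differences was not tested.

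**Figure D4:**
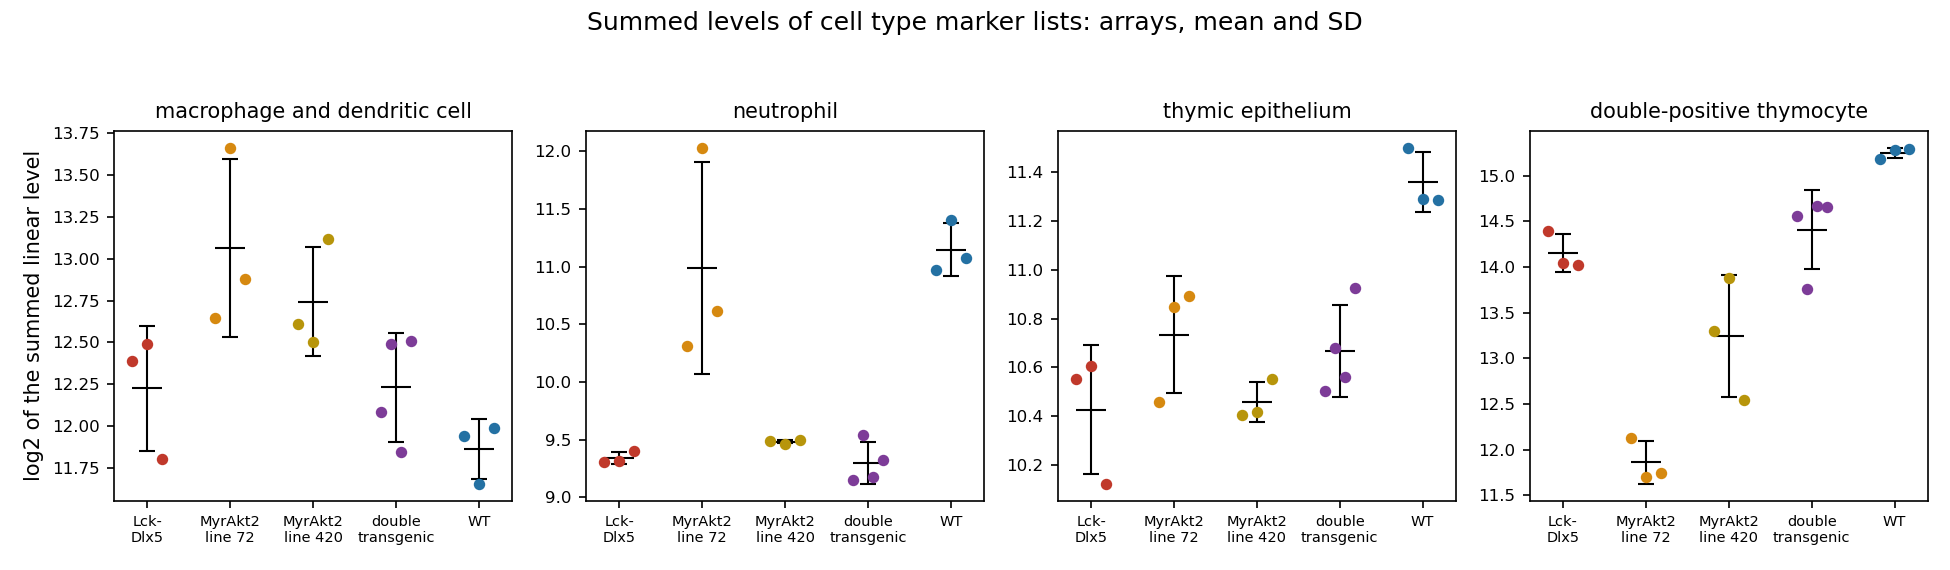
Points are the log2 of the summed linear levels of 4 marker lists on each array, with the mean and SD of each group. Macrophage and dendritic cell markers reach 13.66 in line 72, neutrophil markers are high in line 72 and WT, and thymic epithelial and double-positive thymocyte markers are highest in WT.

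Cxcl13, the B cell follicle chemokine, had the largest rise of all members, and was at 9.78, 9.52 and 7.97 in Lck-Dlx5 lymphomas, 9.70, 12.06 and 9.77 in line 72 tumors, 9.02, 9.63 and 9.89 in line 420 tumors, 8.32, 8.40, 8.30 and 9.19 in double transgenic tumors, and 6.28, 6.13 and 6.58 in WT thymic T cells. The lowest tumor array lay above the highest WT array. The log2 difference was 2.76 ± 0.56 SE (adjusted p = 0.00308) in Lck-Dlx5, 4.18 ± 0.56 SE (adjusted p = 9.71e-05) in line 72 (18.1-fold), 3.18 ± 0.56 SE (adjusted p = 0.00112) in line 420 and 2.22 ± 0.53 SE (adjusted p = 0.00851) in double transgenic tumors, and all 4 calls held under every alternative that tested them. Line 72 replicate 2 carried part of the line 72 size, which without it was 3.41 (10.6-fold, adjusted p = 0.00016). Its receptor Cxcr5 was called in none of these comparisons, and the summed B cell markers given above were no higher in any tumor group than the WT maximum of 10.38. Ccl27a, a ligand of Ccr10 best known from skin, was at 6.93, 6.53 and 7.11 in Lck-Dlx5 lymphomas, 6.51, 6.45 and 6.68 in line 72 tumors, 6.94, 6.90 and 6.84 in line 420 tumors, 6.99, 6.98, 7.08 and 7.05 in double transgenic tumors, and 7.92, 7.89 and 7.94 in WT thymic T cells. Its differences were -1.06 ± 0.12 SE (adjusted p = 0.000102) in Lck-Dlx5, -1.37 ± 0.12 SE (adjusted p = 3.9e-06) in line 72, -1.02 ± 0.12 SE (adjusted p = 0.000104) in line 420 and -0.89 ± 0.12 SE (adjusted p = 0.000212) in double transgenic tumors. Ccl27a has near-identical copies on chromosome 4, so its probes cannot assign the signal to 1 copy. It was also the 1 member with a second feature, at 4.29 to 5.67, on which the differences from WT ran from -0.29 to -0.20 and none was called.

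Of the remaining ligands, Cxcl16, Ccl28, Cxcl17 and the neutrophil ligand Cxcl2 were tested and called in no comparison with WT. Cxcl17 was called higher in Lck-Dlx5 under 1 processing setting (0.26, adjusted p = 0.0489). Cxcl16, the ligand of Cxcr6, lay between 7.76 and 8.74 and came closest in line 72 (0.56, adjusted p = 0.0584), where it was called on omission of WT replicate 3 (0.68, adjusted p = 0.0489) and under 3 processing settings (adjusted p = 0.014 to 0.0479). Cxcl2 had differences of 0.36 to 0.52 in the 4 tumor groups, with adjusted p of 0.0576 to 0.191. It was called under 1 processing setting (adjusted p = 0.0446) for Lck-Dlx5, under 3 processing settings (adjusted p = 0.00543 to 0.0383) for line 72, on omission of line 420 replicate 3 (0.57, adjusted p = 0.0418) for line 420 and on omission of double transgenic replicate 4 (0.62, adjusted p = 0.0323) and under 3 processing settings (adjusted p = 0.0294 to 0.0362) for double transgenic tumors. The 16 members not tested were Ccl1, Ccl12, Ccl20, Ccl24, Ccl26, Ccr1, Ccr1l1, Ccr3, Cxcl1, Cxcl3, Cxcl5, Cxcl10, Cxcl11, Cxcl14, Cxcl15 and Cxcr1, whose values lay between 3.22 and 6.79 on all arrays. A dim signal on these arrays does not show that a gene is silent.

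Members sat in clusters of the genome, with 13 of the 47 on chromosome 11 and 11 on chromosome 5 of GRCm38.p6. The Ccl2 cluster (chr11:82035577-82179812, 6 members, 4 tested) held Ccl2, Ccl7, Ccl11 and Ccl8 among those tested, and the Ccl5 cluster (chr11:83525778-83664683, 5 members, all tested) held Ccl5, Ccl9, Ccl6, Ccl3 and Ccl4 in that order. Neighbours did not move as 1 block. In line 72 tumors Ccl5, at one end of its cluster, fell by 1.32 on the log2 scale, Ccl9 and Ccl6, 47.1 and 62.1 kb on, rose by 2.81 and 3.48, and Ccl4 at the other end differed by -0.04. The annotated spans of Ccl3 and Ccl4 overlap, so part of their signal could be shared. In the Ccl2 cluster, Ccl11 lay between Ccl7 and Ccl8 and had differences of -0.39 to -0.07, without a call in the fit across the 16 arrays.

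**Figure D5:**
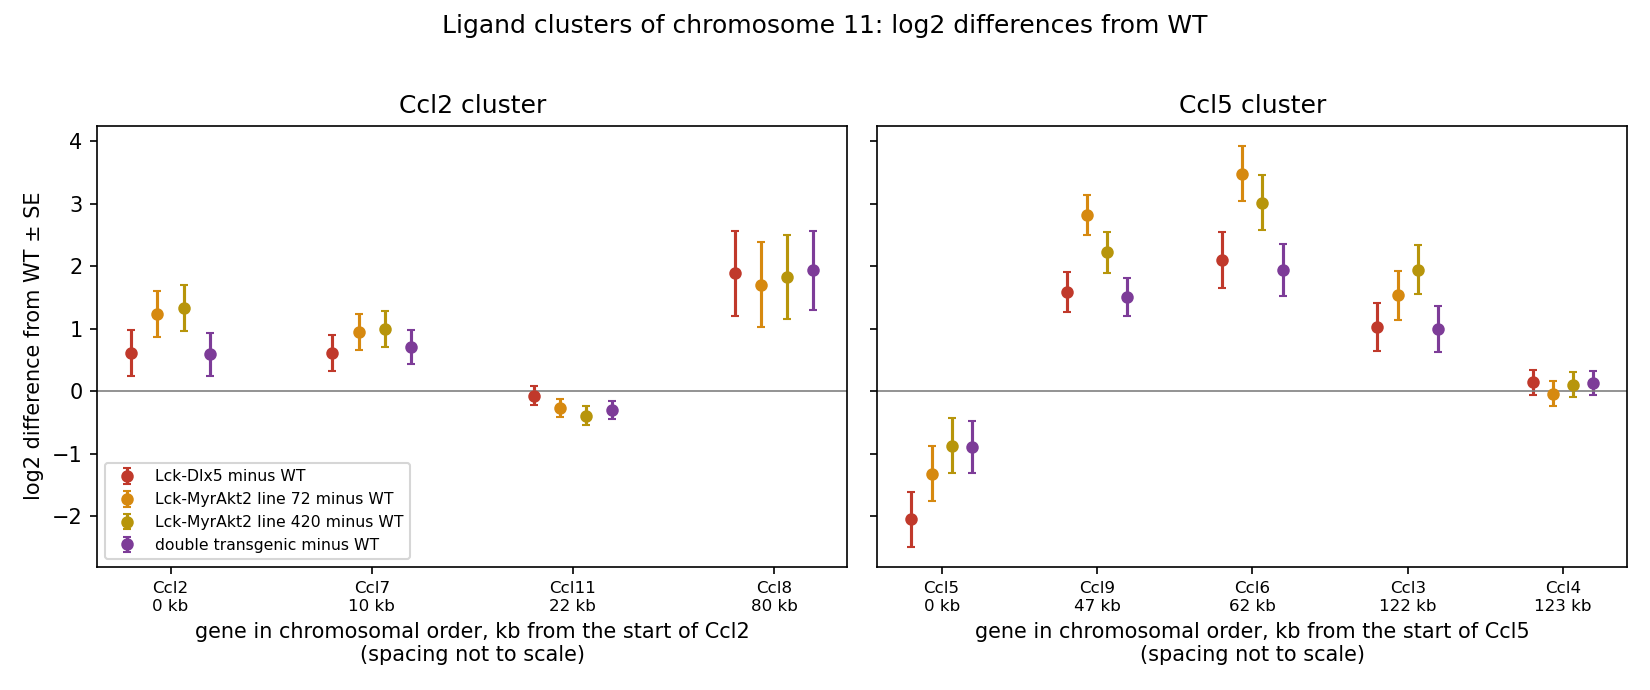
Points are log2 differences from WT (± SE, from limma) of each tumor group, for the tested genes of both chromosome 11 clusters in genomic order, with kb from the start of the first gene. Ccl6 and Ccl9 lie above 1.5 in all 4 tumor groups, while Ccl5 lies below 0 and Ccl4 and Ccl11 lie between -0.39 and 0.14.

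Between tumor groups fewer members differed. Lck-Dlx5 lymphomas and line 72 tumors differed in 5 of 31 members (16.1%), all lower in Lck-Dlx5, where 19.7% of all genes tested were called and 12.8% were lower and 6.94% higher. The groups did not overlap for 11 members, beside 36.5% of all genes. Ccr8 (-1.60 ± 0.31 SE, adjusted p = 0.00332) held under every alternative that tested it. Ccr10 (-1.16) was tested only through its line 72 values, and its difference is a description. Cxcr2 (-0.92 ± 0.22 SE, adjusted p = 0.0116) was lost on omission of Lck-Dlx5 replicate 1 (-0.77, adjusted p = 0.0515) and under 1 processing setting (adjusted p = 0.0544), with 0.00429 to 0.0544 as its span in all settings. Ccl9 (-1.22 ± 0.32 SE, adjusted p = 0.0168) was lost on omission of Lck-Dlx5 replicate 3 (-0.94, adjusted p = 0.0678) and line 72 replicate 2 (-0.93, 0.0723) and under 1 processing setting (adjusted p = 0.056), with 0.0128 to 0.0723 as its span in all settings. Ccl6 (-1.38 ± 0.45 SE, adjusted p = 0.0428) was lost on omission of Lck-Dlx5 replicate 1 (-1.40, adjusted p = 0.0928), Lck-Dlx5 replicate 3 (-1.08, 0.142), line 72 replicate 2 (-0.94, 0.171) and line 72 replicate 3 (-1.59, 0.0554) and under 2 processing settings (adjusted p = 0.051 to 0.0764), with 0.0359 to 0.171 as its span in all settings.

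Line 420 and line 72 tumors, independent founder lines of 1 transgene, differed in 3 of 31 members (9.68%), all lower in line 420, where 11.2% of all genes were called and 7.45% were lower and 3.73% higher. The groups did not overlap for 4 members, beside 29.0% of all genes. The 3 called were Ccr8 (-1.70 ± 0.31 SE, adjusted p = 0.00324), which held under every alternative that tested it, Ccr10 (-1.19), again a description since the line 72 arrays alone brought it into the test, and Cxcr2 (-0.84 ± 0.22 SE, adjusted p = 0.0269). Cxcr2 was lost on omission of line 420 replicate 2 (-0.87, adjusted p = 0.063), line 420 replicate 3 (-0.76, 0.0844), line 72 replicate 2 (-0.61, 0.112) and line 72 replicate 3 (-0.84, 0.0701) and under 2 processing settings (adjusted p = 0.0505 to 0.0871), with 0.00863 to 0.112 as its span in all settings. This comparison and that of Lck-Dlx5 with line 72 share the line 72 arrays.

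Double transgenic tumors and Lck-Dlx5 lymphomas differed in 1 of 31 members (3.23%), where 1.86% of all genes were called, 1.38% higher and 0.487% lower. The groups did not overlap for 3 members, beside 13.5% of all genes. The gene was Cxcr3, higher in double transgenic tumors (1.25 ± 0.29 SE, adjusted p = 0.0454). It was lost on omission of Lck-Dlx5 replicate 1 (1.17, adjusted p = 0.117), Lck-Dlx5 replicate 3 (1.08, 0.113), double transgenic replicate 3 (1.27, 0.0954), double transgenic replicate 4 (1.14, 0.146) and the founder line 86 tumors (1.12, 0.272) and under 3 processing settings (adjusted p = 0.0534 to 0.212), with 0.0157 to 0.272 as its span in all settings. Against line 420 tumors, limma called none of the 31 members in double transgenic tumors (7 at an unadjusted p under 0.05), where 0.178% of all genes were called, 0.124% higher and 0.0541% lower. The groups did not overlap for 7 members, beside 10.4% of all genes. Of those at an unadjusted p under 0.05, 3 were Ccr4 (1.68), Cxcr3 (0.88) and Ccl6 (-1.08), with adjusted p of 0.171, 0.178 and 0.242. With 3 and 4 arrays a group, a missed threshold does not show that the levels are alike.

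The 4 double transgenic tumors fell into pairs by Dlx5 founder line for some members, a split examined after the values were seen. Founder line 86 tumors (replicates 3 and 4) differed from founder line 47 tumors (replicates 1 and 2) in 3 of 31 members (9.68%), all higher in line 86, where 4.28% of all genes were called and 2.72% were higher and 1.56% lower. The pairs did not overlap for 17 members, beside 51.2% of all genes. Ccl17 was at 7.32 and 8.87 in founder line 86 tumors, against 5.34 and 5.90 in founder line 47 tumors (2.47 ± 0.52 SE, adjusted p = 0.0223). Ccr9 was at 10.37 and 10.34 in founder line 86 tumors, against 8.81 and 7.18 in founder line 47 tumors (2.36 ± 0.60 SE, adjusted p = 0.0451). Ccl22 was at 6.51 and 7.80 in founder line 86 tumors, against 5.73 and 5.94 in founder line 47 tumors (1.32 ± 0.34 SE, adjusted p = 0.0471). The Ccr4 difference was 1.33 ± 0.64 SE, adjusted p = 0.257. Ccl17 was lost on omission of double transgenic replicate 1 (2.19, adjusted p = 0.0687), double transgenic replicate 2 (2.75, 0.0943) and double transgenic replicate 4 (1.70, 0.153) and under 1 processing setting (adjusted p = 0.106), with 0.0223 to 0.153 as its span in all settings. Ccr9 was lost on omission of double transgenic replicate 2 (1.54, adjusted p = 0.339), double transgenic replicate 3 (2.35, 0.233) and double transgenic replicate 4 (2.38, 0.153) and under 4 processing settings (adjusted p = 0.0516 to 0.111), with 0.0205 to 0.339 as its span in all settings. Ccl22 was lost on omission of double transgenic replicate 1 (1.22, adjusted p = 0.111), double transgenic replicate 2 (1.42, 0.173) and double transgenic replicate 4 (0.68, 0.286) and under 4 processing settings (adjusted p = 0.0581 to 0.213), with 0.0166 to 0.286 as its span in all settings. Omitting replicate 1 raised the Ccr9 difference to 3.18, and omitting replicate 3 raised that of Ccl17 to 3.24 and that of Ccl22 to 1.97. The founder lines come from the labels, and this comparison was added after the data were seen. Founder line 86 and 47 tumors also differ in Xist (high and low), in the Akt2 line named, and in the type of sample code, and these cannot be told apart with 2 arrays each.

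Fits with the tumors of a single founder line were also added after the values were seen. Their calls and adjusted p describe the split and do not test it. Here too, founder line cannot be told apart from Xist, the Akt2 line named and the type of sample code. Set against WT, founder line 47 tumors alone gave 18 calls (58.1% of members tested, beside 29.5% of all genes) and founder line 86 tumors alone 7 (22.6%, beside 11.9%). With founder line 47 alone, Ccr9 was lower than WT (-2.12, adjusted p = 0.0150), as was Ccl22 (-1.68, adjusted p = 0.000317), and Ccl3 was higher (1.56, adjusted p = 0.00333). Set against Lck-Dlx5 lymphomas, founder line 86 tumors alone gave 9 calls (29%, beside 14.9% of all genes) and founder line 47 tumors alone 0 (beside 0.131%), among the 9 Ccl17 (2.66, adjusted p = 0.00463) and Ccr9 (2.17, adjusted p = 0.0124). Against line 420 tumors, the counts were 4 (12.9%, beside 10.2% of all genes) and 0 (beside 0.0541%), with Ccr4 (2.35, adjusted p = 0.0299) and Ccr9 (2.38, adjusted p = 0.0112) higher in founder line 86 tumors and Ccl3 lower (-1.52, adjusted p = 0.0134).

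Other genes of the chemokine system were followed in 2 lists. Of 28 tested genes of signalling below the receptors (G proteins, kinases, regulators and motility factors), 13 were lower and 0 higher than WT in Lck-Dlx5, 6 lower and 2 higher in line 72, 15 lower and 1 higher in line 420, and 8 lower and 1 higher in double transgenic tumors. Of all genes tested, 15.9%, 15.6%, 15.4% and 8.93% were lower in the same order, and 13.7%, 20.7%, 15.1% and 14.9% higher. Median differences of the list were -0.45, -0.13, -0.47 and -0.28, against 0.00, 0.04, 0.03 and 0.05 over all genes tested. Lower in all 4 were Rasgrp2, an activator of the integrin switch Rap1 (-1.59, -1.99, -1.72 and -1.76 in the order Lck-Dlx5, line 72, line 420 and double transgenic). So were Pik3r5, a subunit of the PI3K that receptors activate through G proteins (-1.41, -1.89, -1.90 and -1.18), and Dock2, the Rac activator of lymphocyte migration (-0.99, -0.68, -0.79 and -0.76). Plcb2 and the regulator Rgs14 were lower in all 4 as well.

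Of 10 tested atypical receptors and chemokine genes with other names, 2 were lower in Lck-Dlx5, 3 lower and 2 higher in line 72, 2 lower and 1 higher in line 420, and 1 lower in double transgenic tumors, beside the same shares of all genes. Ccr7, the receptor that draws mature thymocytes into the medulla, was lower in all 4 (-2.83, -2.49, -2.63 and -2.27). Ccrl2, a receptor of activated neutrophils and macrophages, was higher in line 72 (1.21 ± 0.17 SE, adjusted p = 0.000124). The Ccr7 ligands Ccl19 and Ccl21 are read here only by features assigned to several near-identical genes. Of 9 Ccl21 features 8 were lower than WT in Lck-Dlx5 lymphomas (differences of -1.16 to -0.84 over all 9) and none was called in the other tumor groups, and none of 13 Ccl19 features was called in any. The other several-gene chemokine features named neither Ccl19 nor Ccl21 and were grouped here as the Ccl27 family. Of these 11 features, 9 were lower in Lck-Dlx5, 10 in line 72, 10 in line 420 and 9 in double transgenic tumors. The remaining 1 that was higher in Lck-Dlx5 (0.55) was lower in no tumor group. In each of these 3 families, some features carried identical values on all 16 arrays. Some of the Ccl27 family were identical to the brightest Ccl27a feature. These counts are therefore not counts of independent measurements.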

How the data were processed

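RNA of 13 thymic tumors and 3 wild-type thymic T cell samples was measured on 16 Affymetrix Mouse Gene 2.0 ST arrays. Each feature has 1 log2 level per array, as deposited, for which the labels name the software Affymetrix Expression Console, and the version and normalization are not given in the sources used here. The number of arrays limits the precision, and no depth applies. Of 41345 features, 23521 carried 1 gene in the platform annotation, 1820 several and 16004 none, and only those with 1 gene entered the tests, each gene by its brightest feature. Genes over the array median on fewer than 3 arrays were left out. One mean per group was fitted across the 16 arrays (limma 3.58.1, R 4.3.3). Moderated p-values (eBayes) were adjusted by Benjamini-Hochberg over 12932 genes within each comparison, and a gene was called at limma's adjusted p under 0.05. The study's methods name no test for the arrays. Every p printed is limma's, and ± is its standard error. Processing settings tried were quantile normalization, arrays shifted to 1 median, no filter on dim genes or one at the 75th percentile, the mean of the features of a gene, eBayes with trend and robust, the type of sample code as a term, and a fit of only the arrays compared. Each array was also left out in turn. The script was checked on simulated data. Figures were drawn with Python 3.11.15 and matplotlib 3.10.9. Called members may be named, with array values for those of largest change whose groups did not overlap and for their ligand or receptor, and up to 4 genes of largest change per comparison from each other list. Rasgrp2, Pik3r5, Dock2, Plcb2 and Rgs14, and members outside this rule, were named after their values were seen. Members and gene lists were chosen with earlier results of these data known. Nothing in the labels says which samples share a litter, so p-values measure the spread between these samples. That spread is 1 estimate per gene pooled over all 5 groups, not that of the groups compared. For Ccr9 the group SD ran from 0.06 in WT to 1.52 in double transgenic tumors.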

Additional observations from a re-analysis of the deposited data

Results flagged for a closer look

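In the double transgenic group, the group of 4, 1 array lay far from the other 3 by Dixon's criterion for 6 of the 47 members, where chance flags about 1 in 20. These were Ccl24 (replicate 4, 6.36), Ccl8 (replicate 3, 6.56), Cxcl13 (replicate 4, 9.19), Cxcl2 (replicate 4, 6.33), Cxcl3 (replicate 1, 4.42) and Cxcr4 (replicate 2, 11.71). Groups of 3 were not examined in this way.

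Tumor groups differed from each other by limma's test of the difference for several members. Lck-Dlx5 lymphomas were below line 72 tumors in Ccl6 (-1.38), Ccl9 (-1.22), Ccr10 (-1.16), Ccr8 (-1.60) and Cxcr2 (-0.92). Line 420 tumors were below line 72 tumors in Ccr10 (-1.19), Ccr8 (-1.70) and Cxcr2 (-0.84). Ccr10 entered the tests only through its line 72 values, so its differences are set by the filter. Double transgenic tumors were above Lck-Dlx5 lymphomas in Cxcr3 (1.25). Founder line 86 tumors were above founder line 47 tumors in Ccl17 (2.47), Ccl22 (1.32) and Ccr9 (2.36), a comparison added after the data were seen.

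Outside the features with 1 gene, 1 feature grouped as Ccl27 family was higher in Lck-Dlx5 lymphomas than in WT (0.55). In that group, which holds every several-gene chemokine feature naming neither Ccl19 nor Ccl21, 9 of the 11 features were lower, some of them with identical values on all arrays.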

How the results depend on the processing

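Of 58 called member differences, 35 kept their call under every alternative but the stricter threshold, and none changed direction. With the filter at the 75th percentile, the calls were 7 (Lck-Dlx5), 6 (line 72), 5 (line 420) and 5 (double transgenic) against WT, 2 for Lck-Dlx5 against line 72, 0 for line 420 against line 72, 0 for double transgenic against Lck-Dlx5 and 1 for founder line 86 against 47, since fewer members were tested. With only the arrays compared in the fit, they were 21 for Lck-Dlx5 and 20 for line 72 against WT, 1 for line 420 against line 72, 0 for double transgenic against Lck-Dlx5 and 1 between founder lines. At adjusted p under 0.01 they were 8 (line 72) and 7 (line 420) against WT, 2 for Lck-Dlx5 against line 72, 0 for double transgenic against Lck-Dlx5 and 0 between founder lines. Quantile normalization gave 0 for double transgenic against Lck-Dlx5 and 1 between founder lines. The type of sample code as a term gave 5 for double transgenic against Lck-Dlx5 and 1 against line 420, where the code splits the double transgenic tumors as the Dlx5 founder line does. Founder line 47 tumors alone gave 18 against WT and 0 against Lck-Dlx5, and founder line 86 tumors alone gave 9 against Lck-Dlx5 and 4 against line 420. These fits by founder line were added after the values were seen. The cause of the other shifts was not tested. Leaving out each array in turn gave 10 to 11 calls for Lck-Dlx5, 9 to 14 for line 72, 8 to 13 for line 420 and 8 to 13 for double transgenic tumors against WT, 3 to 6 for Lck-Dlx5 and 2 to 4 for line 420 against line 72, 0 to 2 for double transgenic against Lck-Dlx5, 0 to 1 against line 420 and 0 to 2 between founder lines, where a lone array was assumed to vary like the other groups. No paired analysis was possible because only the WT titles carry replicate numbers. Signals near background on these arrays limit what can be said of the 16 members not tested.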
